A study of Homo sapiens with 4 samples.

Results

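The genes described here are 10 transcripts used as surface or enzyme markers of cancer stem cells and of mesenchymal stromal cells: THY1, CD24, PROCR, PROM1, EPCAM, ALDH1A1, ALDH1A3, NT5E, ENG and MCAM. They were chosen by name, with the difference between the groups in these values already known, and were found by Entrez ID in a table of 39259 genes. The cells were MDA-MB-231, a human line of triple-negative breast cancer. Of the 4 libraries, 2 are of wild-type cells (WT) and 2 of cells labelled knockout (KO) for mdig, the JmjC-domain oxygenase that the RIOX2 gene encodes. All 4 libraries are of cultured cells of this line with no treatment named, and the labels do not say how the knockout was made, whether the KO cells are 1 clone or whether replicates were separate cultures, so p-values measure the spread between these libraries only, which may be technical.

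Flow sorting of breast tumors rests on a small set of surface proteins. Cells with high CD44 and low CD24, and cells with high aldehyde dehydrogenase activity, are the classical tumor-initiating fractions of breast cancer. THY1 (CD90), NT5E (CD73) and ENG (CD105) are together the standard panel of mesenchymal stromal cells, and MCAM (CD146) marks pericytes and some stromal progenitors. PROCR marks a mammary stem cell population, PROM1 (CD133) is used in tumors of many organs, and EPCAM marks epithelial cells. THY1, CD24 and NT5E have no membrane-spanning segment in their mature form and are held in the outer leaflet by a glycosylphosphatidylinositol (GPI) anchor.

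The fragments assigned to genes ranged from 22503981 (WT replicate 2) to 52163811 (KO replicate 2). Values are in FPKM, fragments scaled by the gene's length and by the library's assigned total, so levels can be compared between genes. RIOX2 stood at 8.60 and 8.24 FPKM in WT against 9.23 and 9.82 FPKM in KO, a log2 change of 0.16 (adjusted p = 0.0546 by limma). It passed as a rise under 5 alternatives: a mean of at least 5 FPKM, median-of-ratios scaling, voom, crossed pairs and without WT replicate 1. The knocked-out gene's RNA was thus not lower in the libraries labelled KO, and every direction given here is between the libraries as labelled. Of genes used to describe breast cell identity, VIM measured 2000 to 2394 FPKM, KRT8 235 to 254 FPKM and ERBB2 12.7 to 14.3 FPKM. The estrogen receptor ESR1 had 1 fragment and the progesterone receptor PGR 1 fragment over all 4 libraries. The main comparison was of KO minus WT, by limma on log2(FPKM + 1), over the 11716 genes whose mean reached 1 FPKM. Of these, 49.9% passed a Benjamini-Hochberg adjusted p of 0.05 (2527 higher and 3323 lower, 43.2% of the calls higher). On this scale, log2 changes of genes at a few FPKM are smaller than the log2 of their FPKM ratio. The share of calls that were higher was 55.2% after median-of-ratios scaling, which moved the median change of all genes from −0.04 to 0.01. Without KO replicate 1 there were 1760 higher and 2048 lower, and without KO replicate 2 there were 1559 and 1962.

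Upstream sequence was looked at in the RefSeq promoter table on GRCh38.p14, which matched 8 of the 10 genes; THY1 and EPCAM were not matched. The windows hold the 250 bases before an annotated start, printed 5′ to 3′ on the coding strand. The CG dinucleotide, which reads the same on both strands, is in capitals. The 3 genes are shown because they span the levels found in these cells: NT5E, at the top, PROCR, and ALDH1A1, which was all but absent.
NT5E: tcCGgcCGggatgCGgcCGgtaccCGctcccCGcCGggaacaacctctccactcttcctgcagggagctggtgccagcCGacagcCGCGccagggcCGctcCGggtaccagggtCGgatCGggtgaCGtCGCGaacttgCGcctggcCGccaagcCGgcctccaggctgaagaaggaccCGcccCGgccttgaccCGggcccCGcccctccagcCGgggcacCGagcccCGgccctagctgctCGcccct
PROCR: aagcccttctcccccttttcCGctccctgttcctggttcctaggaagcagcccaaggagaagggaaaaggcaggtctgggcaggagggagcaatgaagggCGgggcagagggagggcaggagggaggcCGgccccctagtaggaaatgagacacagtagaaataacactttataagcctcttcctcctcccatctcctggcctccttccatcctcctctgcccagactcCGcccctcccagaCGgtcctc
ALDH1A1: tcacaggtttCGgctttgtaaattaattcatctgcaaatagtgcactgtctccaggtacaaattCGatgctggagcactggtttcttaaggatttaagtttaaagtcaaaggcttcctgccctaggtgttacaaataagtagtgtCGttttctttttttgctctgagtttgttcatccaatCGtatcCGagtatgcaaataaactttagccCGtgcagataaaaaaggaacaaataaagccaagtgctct
The NT5E window (chr6:85449833-85450082, plus strand) holds 28 CG, the PROCR window (chr20:35171822-35172071, plus strand) holds 5, and the ALDH1A1 window (chr9:72953054-72953303, minus strand) holds 6. At least 1 CG is present in 93.9% of the 35116 windows of this length in the table, whose median is 11. A count of 28 or more is reached by 15.9% of them, and a count of 5 or fewer is found in 38.1%. The highest count among the 8 genes was 38, in ALDH1A3, and MCAM had 26. The windows of the abundant PROCR and the nearly absent ENG, with 7, are both CG-poor, so the counts do not order these genes by level.

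Mean levels in WT cells ran from 125.5 FPKM (NT5E) to 0.0260 FPKM (PROM1) and 0.00528 FPKM (ALDH1A1). The ALDH1A1 value rests on 1 fragment, so the full width of the range is uncertain. NT5E, the ectonucleotidase that makes adenosine from AMP outside the cell, was the highest at 128.6 and 122.4 FPKM, above 98.1% of protein-coding genes. It was followed by PROCR, the endothelial protein C receptor, and by MCAM, a cell adhesion molecule of the immunoglobulin superfamily. THY1, CD24, ALDH1A3 and EPCAM came next, between 1.87 and 6.74 FPKM. ENG, PROM1 and ALDH1A1 were at the bottom, at or under 0.0522 FPKM. Neighbours in this order did not overlap between libraries, except ENG and PROM1. The order of ENG, PROM1 and ALDH1A1 rests on few fragments and is not settled at this depth. In the libraries labelled KO the order of the abundant genes was the same for the first 3 places. THY1 went from place 4 to place 9, and the KO libraries of CD24 and EPCAM overlapped. Of the standard stromal triad, NT5E was abundant, ENG was nearly absent in both groups, and THY1 was well measured in WT only.

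**Figure D1:**
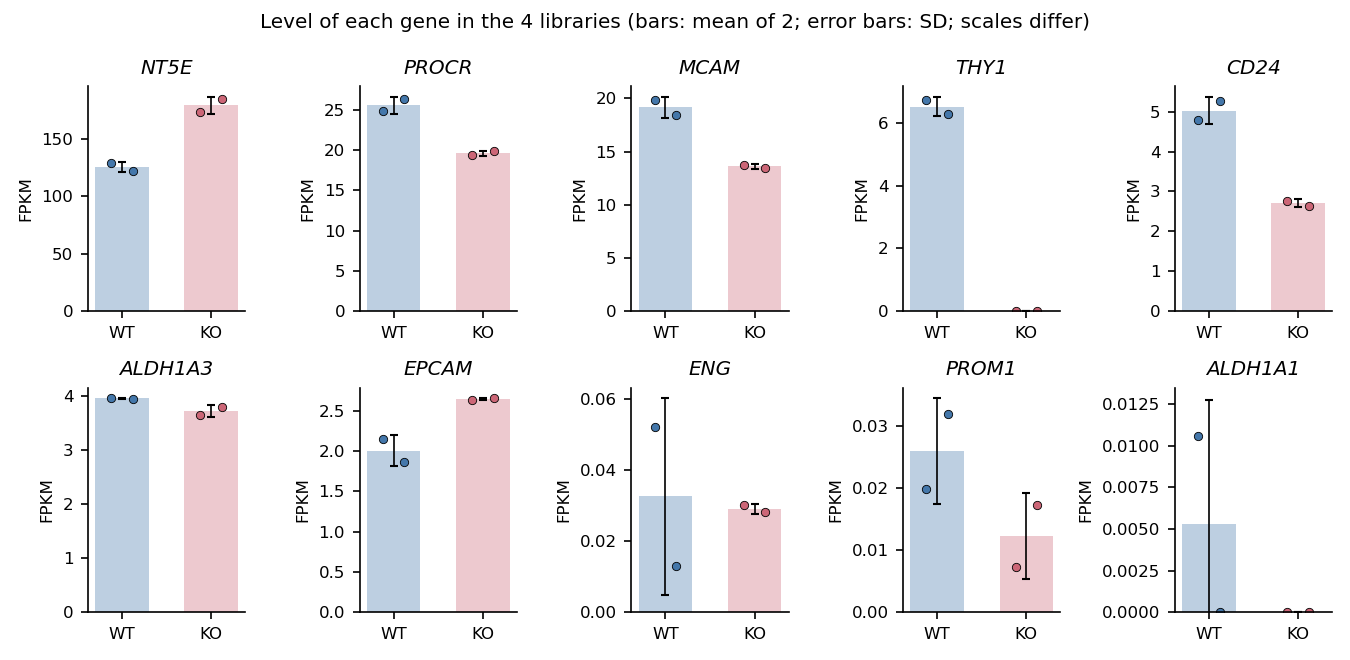
Level of each gene in FPKM on the vertical axis, for the WT and KO libraries, with points for the 2 libraries of a group, bars for their mean and error bars for the SD; each panel has its own scale from 0. THY1 drops from between 6.30 and 6.74 FPKM to at most 0.00680 FPKM, and NT5E and EPCAM are the panels in which both KO points lie above both WT points.

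THY1, a small glycoprotein of the immunoglobulin superfamily found on thymocytes, neurons, fibroblasts and stromal progenitors, was nearly lost. WT replicate 1 had 6.74 FPKM and WT replicate 2 had 6.30 FPKM, whereas KO replicate 1 had 0 and KO replicate 2 had 0.00680 FPKM. These values rest on 1719 and 800 fragments in WT and on 0 and 2 fragments in KO. Both WT libraries were high, both KO libraries were under the floor of 3 fragments, and the groups were far apart. The mean was 6.52 ± 0.314 FPKM (SD, n = 2 libraries, as for all means below) in WT. The ratio of WT to KO fragments, each divided by the assigned fragments, was 1878 (95% exact interval 519.5 to 15520, counting error only). The log2 change on the log2(FPKM + 1) scale was −2.91 (SE 0.065), a scale on which genes near 0 are compressed: it was −6.001 with a pseudocount of 0.1. In a bulk library, fewer cells of a type and less RNA per cell cannot be told apart. The gene (Entrez ID 7070) lies on the minus strand of chromosome 11, from 119415476 to 119424985 as deposited, coordinates that match GRCh38.

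CD24, a short mucin-like GPI-anchored protein whose low level defines the classical breast tumor-initiating fraction, was also lower. Its levels were 4.78 and 5.27 FPKM in WT and 2.77 and 2.64 FPKM in KO, with no overlap between the groups. The mean went from 5.03 ± 0.349 to 2.70 ± 0.0930 FPKM, a difference of −46.2% and a log2 change of −0.70 (SE 0.066). CD24 has pseudogene copies elsewhere in the genome that can take its reads, so its level is uncertain in that respect. Its counterpart in the sorting scheme, the hyaluronan receptor CD44, measured 93.7 and 84.3 FPKM in WT and 99.5 and 102 FPKM in KO. CD44 just passed as a rise (log2 change 0.18, limma adjusted p = 0.0415), a call lost under 6 of the alternatives, among them leaving out either KO library or WT replicate 2. The ratio of CD44 to CD24 in FPKM was 19.6 and 16.0 in WT and 35.9 and 38.8 in KO.

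NT5E was higher in KO, unlike the other GPI-anchored markers. It measured 128.6 and 122.4 FPKM in WT and 173.7 and 184.5 FPKM in KO, from 9815 to 34278 fragments per library, the most of the 10 genes. The groups did not overlap, the mean of 179.1 ± 7.645 FPKM in KO was 42.7% above the 125.5 ± 4.34 FPKM of WT, and the log2 change was 0.51 (SE 0.056). NT5E supplied 67.3% and 66.3% of the summed FPKM of the 10 genes in WT and 80.4% and 81.3% in KO.

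PROCR, which binds protein C and helps to activate it, was lower in KO. Its levels were 24.9 and 26.4 FPKM in WT and 19.4 and 19.9 FPKM in KO. The mean went from 25.6 ± 1.06 to 19.6 ± 0.355 FPKM, a difference of −23.4% (log2 change −0.37, SE 0.056). MCAM was 19.9 and 18.5 FPKM in WT and 13.8 and 13.5 FPKM in KO. Its mean went from 19.2 ± 0.982 to 13.6 ± 0.2225 FPKM, a difference of −29.0% (log2 change −0.47, SE 0.059). In both genes the WT libraries lay above the KO libraries. Of the exon bases of MCAM, 39.2% are shared with the ubiquitin ligase gene CBL on the opposite strand, and the strand setting of the counting was not given in the sources used here, so reads of the shared stretch may have been dropped or split. CBL itself measured 12.9 and 10.6 FPKM in WT and 11.7 and 11.8 FPKM in KO.

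EPCAM, an epithelial adhesion molecule that is low in mesenchymal-like lines, was slightly higher in KO. It measured 2.15 and 1.87 FPKM in WT and 2.64 and 2.65 FPKM in KO. The mean went from 2.01 ± 0.1975 to 2.645 ± 0.01005 FPKM, a difference of 31.8% (log2 change 0.28, SE 0.068). The groups did not overlap, but the WT libraries rest on 150 and 65 fragments.

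ALDH1A3 and ALDH1A1 are cytosolic enzymes that oxidise retinal to retinoic acid and carry much of the activity read by the ALDEFLUOR assay. ALDH1A3 was at 3.96 and 3.96 FPKM in WT and 3.65 and 3.81 FPKM in KO (log2 change −0.07, SE 0.059). The KO libraries lay just below the WT libraries, and the gene was the only tested one of the 10 that did not pass the threshold. Of its exon bases, 49.4% are shared with the antisense gene ALDH1A3-AS1, so with the strand setting unknown the level may hold or lack reads of that stretch. ALDH1A1 had 1 fragment in WT replicate 1 and 0 in each other library, where a count of 0 allows up to 0.0636 FPKM in the shallowest library and 0.0274 FPKM in the deepest. ALDH1A3 gave 98.95% to 99.7% of the summed FPKM of ALDH1A1, ALDH1A2 and ALDH1A3 in every library.

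PROM1, a multi-pass protein of membrane protrusions, had 5 and 4 fragments in WT and 2 and 5 in KO. ENG, a co-receptor for TGF-beta and BMP ligands, had 8 and 1 fragments in WT and 5 and 5 in KO. Both were too low to test. The ENG libraries overlapped between groups, the PROM1 libraries did not in FPKM, and a difference of either gene was not detectable at this depth.

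Counted together, 7 of the 10 genes had a mean of at least 1 FPKM and were tested, and 6 of these passed the threshold: NT5E and EPCAM as higher and THY1, CD24, MCAM and PROCR as lower. Over all tested genes 49.9% passed, 21.6% as higher and 28.4% as lower. THY1 passed the filter only through its WT level. The 7 tested genes had non-overlapping groups, as did 77.5% of all tested genes. Since these genes were picked with this contrast known, the counts are a description and no p-values are given for them. The median log2 change was −0.37 over the 7 and −0.04 over all tested genes. EPCAM no longer passed without KO replicate 1, without KO replicate 2 or with no filter on low values, while the other 5 genes passed in every alternative in which they were tested.

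**Figure D2:**
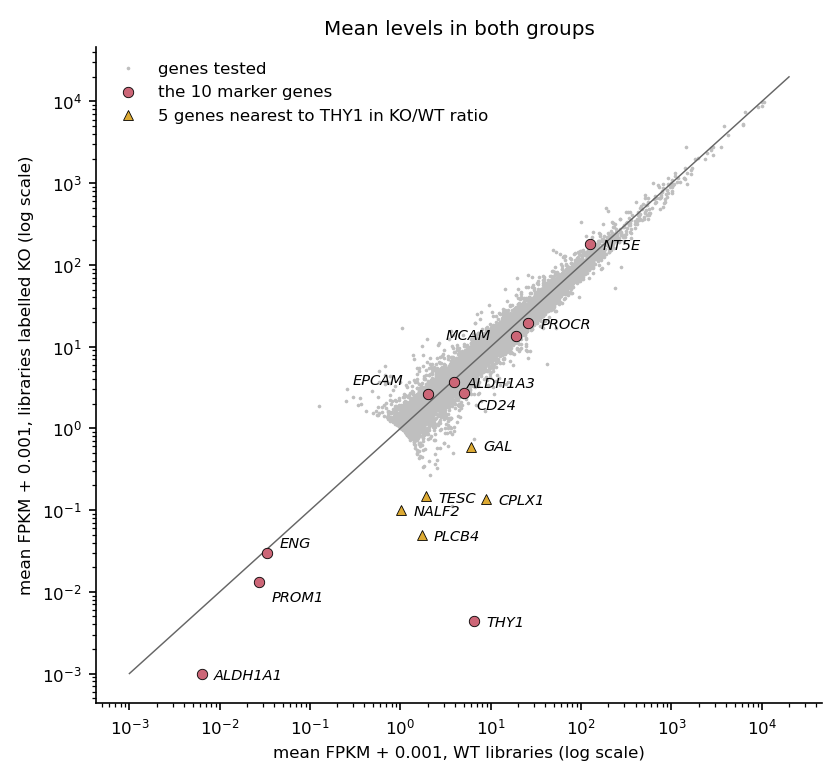
Mean FPKM plus 0.001 in the WT libraries (horizontal, log scale) and in the libraries labelled KO (vertical, log scale), with tested genes in grey, the 10 marker genes as circles, the 5 genes with the KO to WT ratio nearest to that of THY1 as triangles, and a line of equal level. THY1 lies far below the line at 6.52 FPKM in WT, whereas NT5E, PROCR, MCAM, CD24, ALDH1A3 and EPCAM stay close to it.

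Few genes lost as much of their level as THY1. Of the 10609 protein-coding genes whose WT mean reached 1 FPKM, 1 had a KO mean under 1% of its WT mean, and that was THY1 at 0.0521%. Under 10% there were 6, and the others are the 5 genes nearest to THY1 by this ratio over the 4 libraries. CPLX1, a regulator of vesicle fusion, kept 1.53% of its WT level and PLCB4, a phospholipase C, kept 2.86%. TESC, a calcium-binding protein, kept 7.65%, NALF2 9.86% and the neuropeptide gene GAL 9.87%. In fragments, CPLX1 had 847 and 486 in WT and 3 and 29 in KO, PLCB4 had 830 and 416 in WT and 29 and 24 in KO, so each kept more fragments than THY1 in the KO group. The 5 genes were picked by this ratio, so no test is given for them. CPLX1, TESC and GAL passed the filter only through their WT level, and PLCB4 and NALF2 had a mean under 1 FPKM over the 4 libraries. In the other direction, of 10574 protein-coding genes whose KO mean reached 1 FPKM, 0 had a WT mean under 1% of the KO mean and 2 had one under 10%.

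The genes around THY1 were looked at because MCAM lies only 98.35 kb away from it on chromosome 11. Within 500 kb of THY1 there are 36 other genes, of which 20 were tested: 11 passed as lower, MCAM among them, and 2 as higher, with a median log2 change of −0.24 against −0.04 over all tested genes, of which 28.4% were lower. C2CD2L (−0.55), CENATAC (−0.53), NECTIN1 (−0.48) and HYOU1 (−0.37) were lower and kept that call under every alternative in which they were tested, as did MCAM. In all, 6 of the 13 calls among these neighbours were kept in this way. NECTIN1, an adhesion molecule whose gene ends 213 kb upstream of THY1, fell from 6.11 and 6.10 to 4.19 and 4.02 FPKM (limma adjusted p = 0.000394). RNF26, the tested gene with its start closest to that of THY1, measured 34.9 and 32.5 FPKM in WT and 33.1 and 33.0 FPKM in KO. Over 5 Mb to either side, the 58 other tested genes had a median change of −0.08, with 18 lower and 8 higher.

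The one annotated gene that spans THY1 is USP2-AS1, a long noncoding RNA on the opposite strand that shares no exon base with it. USP2-AS1 was below the filter, at 0.709 and 0.692 FPKM in WT and 0.248 and 0.282 FPKM in KO, from 37 and 18 fragments in WT and 14 and 17 in KO. In the fit with no filter, in which 19.0% of 25798 genes passed, it passed as lower (log2 change −0.43, limma adjusted p = 0.0134). USP2, next along, stayed between 0.112 and 0.166 FPKM.

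**Figure D3:**
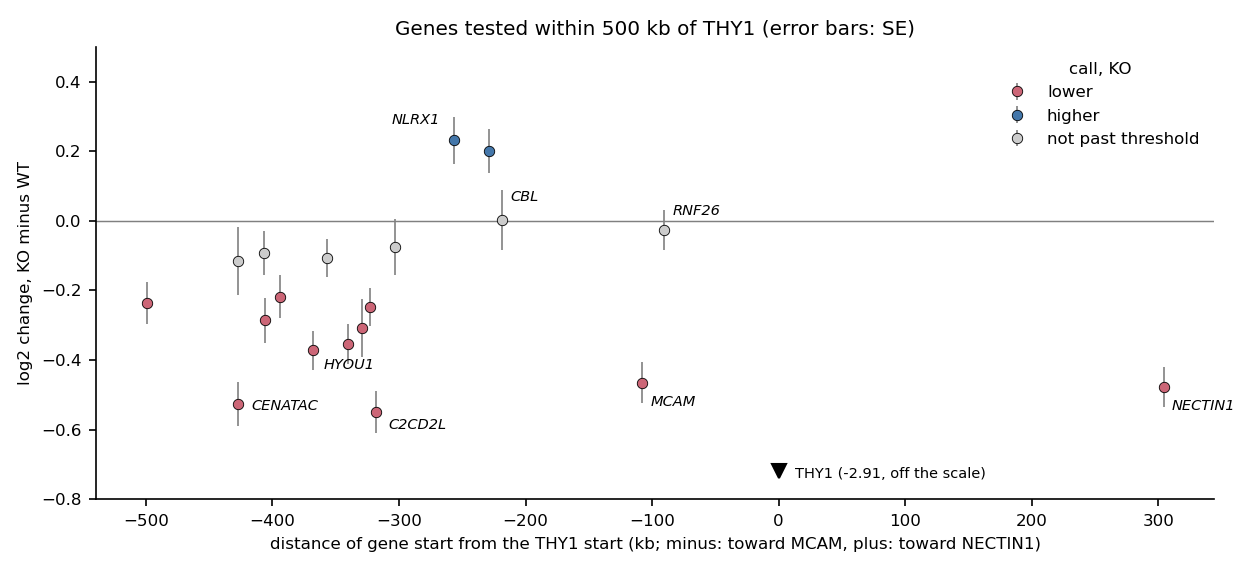
Log2 change, KO minus WT, on the vertical axis against the distance in kb between each gene's start and the THY1 start, for 19 of the 20 genes tested within 500 kb (the small nucleolar RNA SNORD150 at −1.08, not past the threshold, is left out); error bars are SE and colors give the call. The changes lie between −0.55 and 0.23, against −2.91 for THY1, which is off the scale.

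For the other genes the surroundings, taken as tested genes within 5 Mb to either side, had medians between −0.09 (PROCR) and −0.00370 (NT5E), with 3 exceptions. These were −0.41 around PROM1 on chromosome 4, −0.14 around ALDH1A1 and 0.31 around ALDH1A3 on chromosome 15, where 9 of 17 genes were higher and 0 lower. ALDH1A3 itself changed by −0.07.

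Genes related to these markers were then followed in lists that hold none of the 10. Together the lists contain 297 genes, of which 162 were tested, 52 higher and 42 lower (58.0% called, against 49.9% of all genes), with a median change of −0.01. The GPI anchor was the first subject, as it links THY1, CD24 and NT5E. Of 30 tested genes for making and attaching the anchor, 9 fell and 5 rose (median −0.09). PIGT and DPM1 fell most (−0.41 each; PIGT from 102 ± 4.44 to 76.75 ± 3.40 FPKM), and PIGB (0.52) and PGAP3 (0.32) rose. PIGT is a subunit of the transamidase that attaches the anchor, and DPM1 makes the mannose donor. There were 5 falls after median-of-ratios scaling and 4 without either KO library, each left out in turn, and 3 rises without KO replicate 1 and 2 without KO replicate 2. Of 23 other tested GPI-anchored proteins, 7 rose and 6 fell (median −0.02). LYPD6B rose from 1.38 ± 0.163 to 7.985 ± 0.0940 FPKM (log2 change 1.92, limma adjusted p = 1.75e-06) and SEMA7A, a semaphorin, from 7.17 ± 0.719 to 14.1 ± 0.196 FPKM. LY6E fell from 95.45 ± 6.81 to 40.5 ± 2.58 FPKM (−1.22, limma adjusted p = 1.36e-05). LY6K fell from 2.735 ± 0.0261 to 1.16 ± 0.00390 FPKM (−0.79). The ratio of KO to WT means was 0.42 for LY6E and 0.42 for LY6K. Over all tested genes 21.6% were higher and 28.4% lower, so movement in both directions is not particular to GPI-anchored genes.

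Of 15 tested genes for proteins that bind THY1 or pass on its signal, 6 rose and 3 fell (median 0.01). Over all tested genes 21.6% were higher and 28.4% lower. The rises of CSK and SRC were lost with no filter and without either KO library. The number of falls changed without WT replicate 2. ITGB1 rose from 134 ± 23.3 to 255.8 ± 11.25 FPKM (0.93, limma adjusted p = 0.00334) and ITGAV, whose product pairs with beta-3 and beta-5 integrin to bind THY1, rose by 0.44, a call lost with no filter. ITGB3 measured 5.27 and 4.18 FPKM in WT and 3.90 and 4.13 FPKM in KO and did not pass. ITGB2, the leukocyte beta chain that also binds THY1, fell by 1.23 (limma adjusted p = 4.67e-06), and the Src-family kinase LYN by 0.33. The integrin alpha-chain genes ITGAM and ITGAX of this list stayed at or under 0.240 and 0.00823 FPKM, respectively, in every library. FYN, the kinase most often tied to THY1, did not pass (9.56 and 9.22 against 9.25 and 8.86 FPKM).

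In the EPCAM list of partners, proteases and signaling genes, 5 of 10 tested genes rose and 2 fell (median 0.28). SPINT2 and SPINT1, inhibitors of matriptase, each rose by 0.96, from 65.2 ± 5.63 to 127.3 ± 1.565 FPKM and from 2.78 ± 0.157 to 6.34 ± 0.113 FPKM. The ratio of KO to WT means was 1.95 for SPINT2 and 2.28 for SPINT1. The tetraspanin CD9 (−0.37) and the EPCAM-signaling partner FHL2 (−0.27) fell, the latter not without KO replicate 1.

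ENG was nearly silent, but 12 of the 16 genes listed for its receptor complex and targets reached the filter. Of these 12, 7 rose and 1 fell (median 0.25), against 21.6% higher and 28.4% lower over all tested genes. The rises of ID1 and BMPR2 were lost with no filter, and those of ID1 and SMAD1 without either KO library. The type I receptor TGFBR1 rose from 6.45 ± 0.476 to 11.5 ± 0.396 FPKM (0.75, limma adjusted p = 9.66e-05). MMP14, the protease that sheds endoglin, rose from 66.55 ± 3.86 to 127 ± 0.943 FPKM (0.92). TGFBR3, a co-receptor related to endoglin, fell by 0.35, a call lost with no filter. ACVRL1, the endothelial partner of endoglin, stayed at or under 0.161 FPKM. The ligand genes of the list were also low, with GDF2 at 0 and BMP10 at or under 0.00736 FPKM in every library.

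On the adenosine side, NT5E had little of the usual upstream enzyme: ENTPD1 (CD39) measured at most 0.0190 FPKM in any library. ENPP1, another ectoenzyme that yields AMP, rose from 15.1 ± 0.692 to 24.0 ± 0.720 FPKM (0.63, limma adjusted p = 0.000118). Among enzymes that remove adenosine or its product inosine, ADA fell from 3.08 ± 0.427 to 1.496 ± 0.230 FPKM (−0.71) and PNP from 66.4 ± 0.231 to 52.05 ± 2.82 FPKM (−0.35), while ADK rose by 0.25, a call lost without either KO library. The receptor ADORA2B measured between 10.3 and 10.9 FPKM in all 4 libraries and did not pass. In all, 2 of 7 tested genes of this list rose and 2 fell (median −0.12).

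In the protein C list, 3 of 6 tested genes rose and 1 fell (median 0.20), and 1 rose without KO replicate 2. Tissue factor, F3, rose from 117 ± 1.64 to 145 ± 6.47 FPKM (0.31, limma adjusted p = 0.00221). PROS1 rose by 0.30 and THBD, thrombomodulin, fell by 0.20; the first call was lost with no filter and without KO replicate 2, the second with no filter, after median-of-ratios scaling and without either KO library. PROC, the ligand of PROCR, had 1 fragment over the 4 libraries.

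Of 11 other tested aldehyde dehydrogenases, 5 fell and 1 rose (median −0.13). ALDH5A1, of GABA breakdown, fell from 1.997 ± 0.0403 to 0.861 ± 0.0566 FPKM (−0.69, limma adjusted p = 0.000128) and the mitochondrial ALDH2 from 4.53 ± 0.282 to 2.92 ± 0.0649 FPKM (−0.50). ALDH3A2, which oxidises fatty aldehydes, rose by 0.25, a call lost without KO replicate 2. Among 12 tested retinoid genes, 5 rose and 2 fell (median −0.01), and 2 rose without either KO library. FABP5, a carrier of fatty acids and retinoic acid, fell by 0.68. CYP26B1 fell by 0.33, from 3.56 ± 0.185 to 2.64 ± 0.0108 FPKM. PLAAT4 (0.69) and TGM2 (0.34) rose.

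**Figure D4:**
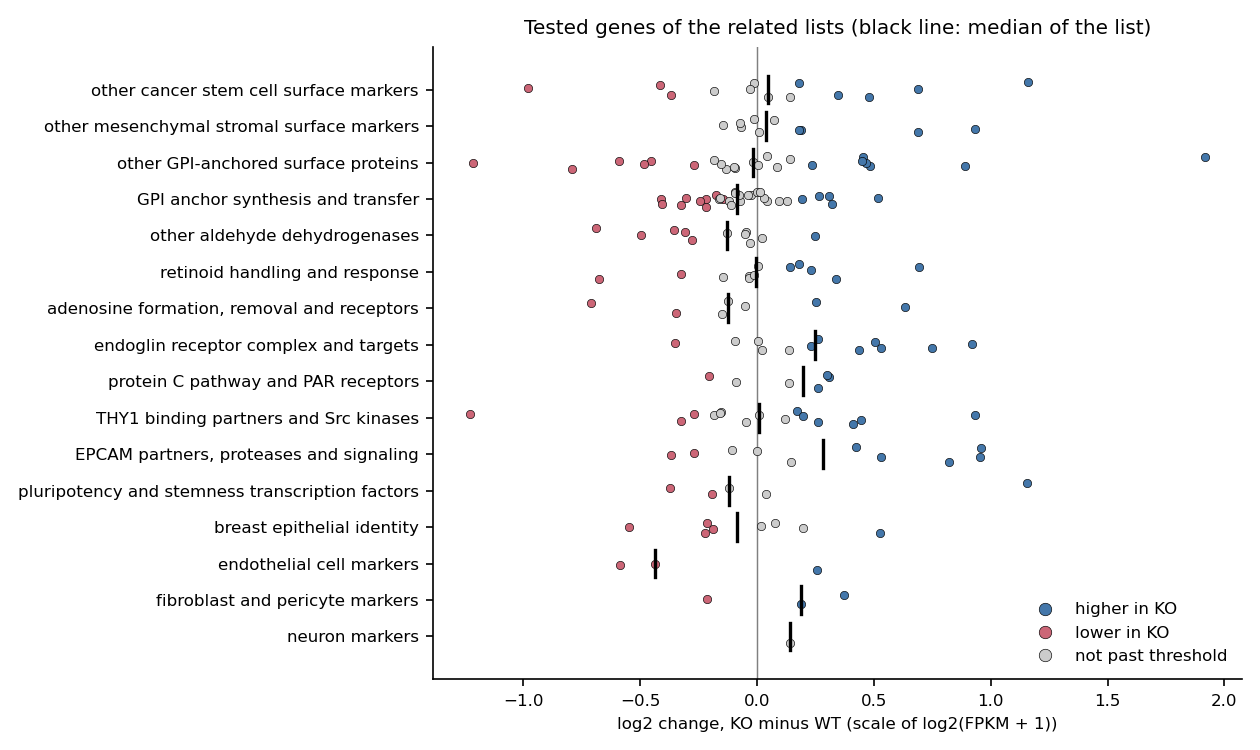
Log2 change, KO minus WT, of each tested gene (points, colored by call) in the 16 related lists with a tested gene, with a black line at the median of each list. Points lie on both sides of 0 in all lists with more than 1 tested gene, and the list medians run from −0.44 (endothelial markers, 3 tested genes) to 0.28 (EPCAM partners).

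Among other surface proteins used to sort tumor stem cells, 5 of 13 tested genes rose and 3 fell (median 0.05). The mucin MUC1 rose from 1.505 ± 0.0924 to 4.60 ± 0.308 FPKM (1.16, limma adjusted p = 1.35e-05) and podocalyxin, PODXL, from 75.5 ± 6.03 to 122 ± 1.98 FPKM (0.69). LRIG1, an inhibitor of EGF receptors that marks quiescent stem cells, fell from 3.53 ± 0.229 to 1.295 ± 0.0153 FPKM (−0.98, adjusted p = 2.4e-05), and L1CAM fell by 0.41. In the list of other stromal surface markers, 4 of 10 rose, ITGB1 (0.93) and LEPR (0.69) most, and 0 fell (median 0.04). With no filter, without either KO library, without WT replicate 2 or with the replicate numbers as a block 2 rose, and 1 fell without either WT library, with voom and with crossed pairs. Among pluripotency and stemness transcription factors, 5 of 13 were tested. SNAI2, of epithelial-mesenchymal transition, rose from 2.76 ± 0.151 to 7.36 ± 0.0483 FPKM (1.16, adjusted p = 8.33e-06), SNAI1 fell by 0.37, and KLF4 fell by 0.19, a call lost without either KO library and after median-of-ratios scaling. NANOG had 1 fragment over the 4 libraries.

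Markers of cells that carry THY1 or ENG elsewhere were checked in the same libraries. Of the 9 fibroblast and pericyte markers 6 were under 1 FPKM in all libraries, with DCN at 1 fragment and LUM at 4 over the 4 libraries, and the summed level was 4.49 to 4.71 FPKM in WT and 5.245 to 5.66 FPKM in KO. COL1A1 rose by 0.37 and PDGFRB by 0.19 while RGS5 fell by 0.21, and the last 2 calls were lost without either KO library. PDGFRB was also lost without WT replicate 2. Of the 7 neuron markers 1 was tested and it did not pass; they summed to 1.57 to 1.71 FPKM in WT and 1.85 to 2.07 FPKM in KO, and the 10 leukocyte markers, of which 0 were tested, to 2.55 to 2.73 and 2.40 to 2.54 FPKM, with PTPRC at or under 0.156 FPKM. Of the 8 endothelial markers, CLDN5 was at 0 in every library and CDH5 had 5 fragments in all. ESAM (77.2 ± 3.19 to 51.1 ± 2.76 FPKM, log2 change −0.59, limma adjusted p = 0.000192) and ROBO4 (10.2 ± 0.293 to 7.27 ± 0.464 FPKM) were expressed and fell, PECAM1 rose by 0.26 (lost without either KO library), and the sum went from 86.1 and 91.1 FPKM in WT to 62.3 and 57.7 FPKM in KO. The part of these cell types' markers in the THY1 difference was not tested. In the list of breast epithelial identity, 1 of 8 tested genes rose and 4 fell (median −0.09), and 1 fell without either KO library. KRT19 rose by 0.53, while the fall of VIM (0.22 on the log2 scale) was lost without either KO library.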

How the data were processed

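RNA was sequenced from 2 WT and 2 KO libraries, grouped by their titles. STAR, Subread and DESeq2 are listed, without versions or roles, in the submitters' processing notes; the build, gene annotation and counting strand were not given in the sources used here. Per the file headers, the deposited table holds FPKM for 39259 Entrez IDs with exon coordinates and length. FPKM times length came in whole steps of what 1 fragment is worth in each library for 100% of values (tolerance 0.001), taking the smallest value above 0 as 1 fragment, which gave the fragments and depths printed. Symbols came from RefSeq (GRCh38.p14), matched for 96.0% of genes.

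The main test was limma 3.58.1 (R 4.3.3; trend and robust) on log2(FPKM + 1), pseudocount 1, where the mean over libraries reached 1 FPKM, adjusted by Benjamini-Hochberg, threshold 0.05. The steps were also run on simulated data, with the same spread set for every gene and few genes changed. These libraries differ from that setting, so the run does not gauge the error rate of the calls given here. The 10 genes, the lists and the tests were chosen with earlier results of these data known. Named genes were the 10, genes within 500 kb of THY1, the 5 protein-coding genes with the lowest KO to WT ratio, RIOX2, levels of defining markers of other cell types, and the 2 largest rises and falls past the threshold in each list (some genes are not reported here); others named, such as CD44, ITGB3, FYN, ADORA2B, ENTPD1, PROC and ACVRL1, were chosen after their values were seen. Alternatives were a pseudocount of 0.1, no filter, a mean of at least 5 FPKM, median-of-ratios scaling, limma without trend or robust, voom on fragments, the replicate number as a block, and leaving out each library, where the lone library is assumed to vary like the other group. The chi-square over its degrees of freedom was 7.62 between the WT libraries and 5.3 between the KO libraries, above counting noise. All 4 libraries were kept. Intervals cover counting error only.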

Additional observations from a re-analysis of the deposited data

How the results depend on the processing

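All 7 tested genes of the 10 kept their direction under each alternative that tested them; the THY1 log2 change ranged from −10.7 (voom) to −2.86, on scales with different offsets from 0, and ALDH1A3 passed under none. With no filter, 1 of the 10 genes passed as higher. With a mean of at least 5 FPKM, 1 passed as higher and 2 as lower, since 3 of the 10 were then tested. Leaving out 1 library gave 1 to 2 higher and 4 to 4 lower. Over all genes it gave 1559 to 3076 higher and 1962 to 4001 lower, and over the related lists 34 to 56 higher and 29 to 52 lower. The replicate numbers are not stated to mark a shared culture, and deviations of same-numbered libraries correlated at −0.225 across genes. With the replicate block, 2348 genes were higher and 3029 lower. With crossed pairs, an alternative added after the data were seen, these were 2839 and 3821. Of 50 genes named from the lists, 38 kept their call under every alternative that tested them. These 50 were picked as the largest changes in each list, so the share does not stand for the other calls. DPM2 and TMED9, which are not among them, each lost their call under 7 alternatives. Among neighbours of THY1 that did not pass, the log2 change took both signs on leaving out 1 library for CENATAC-DT (−0.26 to 0.029), HINFP (−0.19 to 0.035), CBL (−0.13 to 0.13) and RNF26 (−0.076 to 0.023). It also turned for CBL with voom (−0.00272) and for RNF26 with median-of-ratios scaling (0.036). The causes were not tested. Depth limits ENG, PROM1 and ALDH1A1, for which 3 fragments in the shallowest library correspond to 0.0240 to 0.0636 FPKM.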

Other observations

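Among list genes too low for the main test, 4 had at least 15 fragments over the libraries of one group and at most 3 over those of the other, a limit chosen after the values were seen. All 4 were lower in KO. The adenosine receptor ADORA1 had 61 and 32 fragments in WT and 2 and 1 in KO, so that WT had 46.2 times as many per assigned fragment (exact 95% bounds 15.3 and 228, for counting error alone). The chemokine receptor CXCR4 had 18 and 8 fragments in WT and 0 and 0 in KO, a KO level that was lower by at least 9.78-fold (exact 95% bound), or 12.9-fold against a floor of 3 fragments over the KO group. The pioneer factor FOXA1 had 20 and 8 fragments in WT and 0 and 2 in KO (ratio 20.9, interval 5.265 to 181). ENTPD1 had 14 and 4 fragments in WT and 1 and 0 in KO (ratio 26.8, interval 4.24 to 1118). The limit itself sets the groups apart, so no test is given for these 4 genes. The intervals do not allow for the picking.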
